A study of Mus musculus with 6 samples.

Results

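The miR-30 family was examined in liver RNA from 3 mice with the Apcfl/fl genotype and 3 with Apc+/+, through its guide-strand probes on a NanoString panel, mmu-miR-30a, mmu-miR-30b, mmu-miR-30c, mmu-miR-30d and mmu-miR-30e. These 5 probes were chosen by name, out of 599 on the panel and 566 for mouse miRNAs, and all 5 passed the filter on low counts. The assay counts miRNA molecules one by one through colour-coded probes, with no amplification step. Apcfl/fl mice carry a hypomorphic Apc allele and had developed hepatocarcinoma (HCC) with active Wnt/β-catenin signalling, while Apc+/+ mice had healthy liver, and both were on the C57Bl/6 background. No Cre, agent or time course belongs to either group in the labels, and the ages of the mice and the tumour content of each liver are not given in the sources used here. RNA came from frozen liver tissue without any sorting of cells named in the labels, so that fewer cells of a type and less RNA per cell cannot be told apart.

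miRNAs guide the silencing complex to messenger RNAs, mainly through the seed, bases 2 to 8 counted from the 5′ end of the mature strand. The miR-30 miRNAs share a seed and are therefore grouped as a family with overlapping targets. They are expressed in many epithelial tissues, the liver among them, and are widely studied in differentiation and in the epithelial to mesenchymal transition.

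The mature sequences are shown because they set out what the members share and where the probes have to tell them apart. The RefSeq miRNA table used here (GRCm38.p6) matched 3 of the 5, printed with the seed in capitals together with miR-384-5p, which carries the same seed.
miR-30a-5p: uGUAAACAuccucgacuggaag
miR-30c-5p: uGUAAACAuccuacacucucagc
miR-30e-5p: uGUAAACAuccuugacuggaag
miR-384-5p: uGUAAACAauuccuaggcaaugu
The seed GUAAACA, whose match in a messenger RNA reads UGUUUAC, was found in 4 of the 1679 mature miRNA names of the RefSeq table. That table had no entry for miR-30b or miR-30d, so neither could be among the 4. MiR-30a and miR-30e differed at 1 of the 22 positions compared, C13U, counted from the 5′ end of miR-30a. MiR-30c differed from miR-30a at 5 of 22 positions, all after the seed, the first being C13A. Cross-capture between the miR-30a and miR-30e probes was not tested, so their separate values are uncertain to that extent. MiR-384-5p first departed from miR-30a at position 9, directly after the seed.

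Of the 3 matched members, miR-30c is the one with a pair of hairpins, which are shown with the guide strand in capitals.
Mir30c-1: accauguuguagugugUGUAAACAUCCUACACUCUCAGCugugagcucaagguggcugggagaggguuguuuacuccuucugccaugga
Mir30c-2: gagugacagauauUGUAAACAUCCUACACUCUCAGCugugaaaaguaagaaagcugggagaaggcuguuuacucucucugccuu
Mir30c-1 lies at chr4:120769534-120769622 (GRCm38.p6, minus strand), inside Nfyc, which encodes a subunit of the transcription factor NF-Y. Mir30e (chr4:120772606-120772697, minus strand) lies in the same gene, 2983 bases away. Mir30c-2 (chr1:23291701-23291784, plus strand) lies 19361 bases from Mir30a (chr1:23272269-23272339, plus strand). In the RefSeq gene order Mir30b and Mir30d are next to each other among miRNA genes. Each hairpin gives the same mature miR-30c, so the probe cannot tell their products apart.

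The livers gave 82942 to 133331 mouse miRNA counts, with a limit for background, set from 33 viral miRNA probes, of 13.1 to 27.8 counts. MiR-720 alone made up 33.0% of counts in the third Apc+/+ liver and between 15.7% and 25.7% elsewhere, which is why the choice of scaling is given beside the results below. TMM, the scaling used here, sets libraries equal over the bulk of the tested miRNAs. The liver marker miR-122 was well above background in all 6 livers.

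Every liver had all 5 members above the background limit. The lowest value was 50 counts of miR-30e in Apc+/+ liver 1, at 2.51 times that liver's limit. None of the 5 differed between the genotypes at an adjusted p-value under 0.05 in edgeR's quasi-likelihood test (0 of 5, against 0% of the 174 miRNAs tested). At an unadjusted p-value under 0.05, 1 of 5 was lower in Apcfl/fl liver, where 10.9% of the tested miRNAs were lower and 13.8% higher. That member, miR-30c, was also the only one whose normalized counts did not overlap between the genotypes, as was so for 18.4% of the tested miRNAs on the lower and 15.5% on the higher side. The median log2 fold change was -0.36 over the 5 members and 0.01 over all 174 tested miRNAs, and 4 of 5 members and 86 of 174 miRNAs had a fitted value below 0.

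MiR-30c (MIMAT0000514) was deposited with 107.67, 113.67 and 118.67 counts for the Apc+/+ livers, against 72.67, 99.67 and 96.67 counts for the Apcfl/fl livers. Even before any scaling, every Apcfl/fl liver thus lay below every Apc+/+ liver. TMM scaling turned these into 134.5, 138 and 144 for Apc+/+, against 64.8, 105 and 62.9 for Apcfl/fl. The Apc+/+ livers were close to each other, and Apcfl/fl liver 2 lay nearest to them. The means were 139 ± 4.93 (SD, n = 3) and 77.4 ± 23.5 (SD, n = 3), a ratio of 0.556 (95% confidence interval 0.34 to 0.911, edgeR). The log2 fold change was -0.85 (standard error 0.30, unadjusted p = 0.026, adjusted p = 0.14 over the 174 miRNAs), and an exact permutation test (two-sided) reached p = 0.1, its lower bound with 3 mice against 3. For counting error alone, the 95% Poisson interval of the rounded, unscaled count was 88.6 to 130 in Apc+/+ liver 1 and 57.2 to 91.8 in Apcfl/fl liver 1. It was 81.4 to 122 in Apcfl/fl liver 2 and 78.7 to 118 in Apcfl/fl liver 3. The intervals of these livers overlapped those of every Apc+/+ liver, so the separation of the unscaled counts lay partly within counting error. All these intervals treat the deposited count as the full count. Where a constant had been subtracted beforehand, they are too narrow by an unknown amount. Scaled to the total count in place of TMM, the log2 fold change was -0.47, and the genotypes overlapped.

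MiR-30b (MIMAT0000130) reached 645, 679.7 and 698 normalized counts with the normal Apc allele, and 387, 697 and 489.9 in the Apcfl/fl mice. The Apc+/+ livers lay within a narrow range, and Apcfl/fl liver 2 fell inside that range while the other Apcfl/fl livers lay below it. On the log2 scale the genotypes differed by -0.36 (SE 0.25, interval at 95% from -0.95 to 0.23, edgeR adjusted p = 0.39), with overlapping genotypes (exact permutation test, two-sided, p = 0.3). A single Apcfl/fl liver moved this value by over 1.5 times, to -0.57 without liver 2, where the genotypes did not overlap (edgeR unadjusted p = 0.027), and to -0.18 without liver 1. In all, the genotypes did not overlap for miR-30b in 5 of 15 alternatives, namely the top 100 size factor and the fits without Apcfl/fl liver 2 or any 1 Apc+/+ liver. Groups with a liver left out are smaller and separate more easily, and the share over all tested miRNAs was not counted there. The log2 difference of miR-30b was 0.010 when the total count replaced TMM.

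MiR-30d (MIMAT0000515), the genomic neighbour of miR-30b, gave 260.3, 248 and 209.7 normalized counts for Apc+/+, against 223, 253 and 213 for Apcfl/fl. The genotypes overlapped almost completely. Its log2 difference was -0.06 (SE 0.21, interval at 95% from -0.56 to 0.43, edgeR adjusted p = 0.87), so a change of up to 1.35-fold upward or to 0.68 of the Apc+/+ level lay within the interval. With the total count as library size the value was 0.31.

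MiR-30a (MIMAT0000128) was counted 458, 648 and 639 times after normalization in the Apc+/+ livers and 677, 673 and 411 times in the Apcfl/fl livers. The highest and the lowest of the 6 values both came from Apcfl/fl mice. The log2 difference came to 0.01 (SE 0.27, interval at 95% from -0.62 to 0.64, edgeR adjusted p = 0.98), and the sign turned with several settings, such as -0.11 without Apc+/+ liver 1. The interval holds changes of over 1.5-fold in each direction, so the data do not show that the level was the same.

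MiR-30e (MIMAT0000248) had the fewest counts, normalized to 62.3, 94.5 and 72.7 for Apc+/+, against 75.5, 55.4 and 47.3 for Apcfl/fl. The genotypes overlapped, with Apcfl/fl liver 1 among the Apc+/+ values. It differed by -0.37 on the log2 scale (SE 0.35, interval at 95% from -1.19 to 0.46, edgeR adjusted p = 0.56), the widest interval of the family, and 0.043 with the total count.

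**Figure D1:**
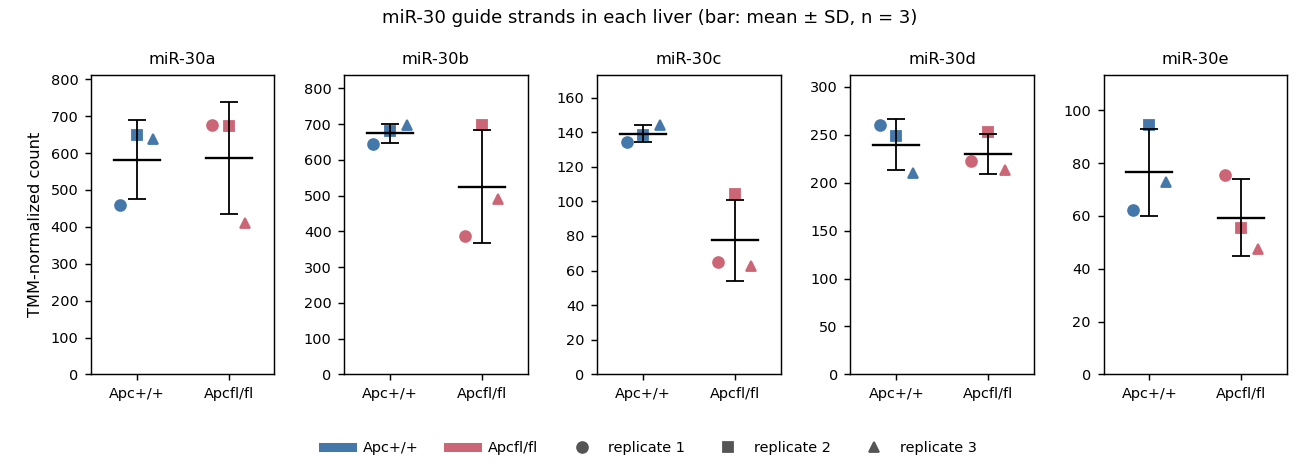
TMM-normalized counts (y axis, each panel with its own scale from 0) of the 5 guide-strand probes, with 1 symbol per liver, Apc+/+ in blue and Apcfl/fl in red, and the mean and SD of 3 livers in black. For miR-30c the Apcfl/fl livers, at 62.9 to 105, lie below the Apc+/+ livers, at 134.5 to 144, and the genotypes overlap for the other 4 members.

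The order of the probes by mean normalized count was miR-30b, miR-30a, miR-30d, miR-30c and miR-30e in Apc+/+ liver. In Apcfl/fl liver miR-30a came before miR-30b, at 587 ± 152 (SD, n = 3) and 525 ± 158 (SD, n = 3), means that differ by less than either SD. In Apc+/+ liver they were at 582 ± 107 and 674 ± 26.9 (SD, n = 3 each), and miR-30b was above miR-30a in every liver. Within a liver the ratio of miR-30a to miR-30b was 0.710, 0.953 and 0.914 for Apc+/+, against 1.75, 0.965 and 0.838 for Apcfl/fl. MiR-30c and miR-30e, at 139 ± 4.93 and 76.5 ± 16.4 in Apc+/+ liver, were at 77.4 ± 23.5 and 59.4 ± 14.5 in Apcfl/fl liver, where the difference was smaller than the larger SD. Each probe has its own capture efficiency, so this is an order of counts and not of molecules. The shared decimal parts of miR-30b, miR-30c and miR-30d also point to a constant subtracted per probe. MiR-30a and miR-30e were deposited as whole counts, which cannot show whether one was subtracted.

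The family sum, the 5 deposited counts added in each liver, was 1253, 1493 and 1455 for Apc+/+, against 1607, 1706 and 1889 for Apcfl/fl. These unscaled sums were higher in all 3 Apcfl/fl livers than in any Apc+/+ liver, although the total counts of the genotypes overlapped. As a share of all mouse miRNA counts the family took 1.51%, 1.60% and 1.09% for Apc+/+, against 1.67%, 1.66% and 1.43% for Apcfl/fl. After TMM scaling the sums were 1561, 1809 and 1764 against 1427, 1783 and 1224, with means of 1711 ± 132 and 1478 ± 283 (SD, n = 3 each), and the genotypes overlapped. The log2 ratio of the mean sums was -0.21 with TMM but 0.17 with the total count, which moved the median of all tested miRNAs from 0.01 to 0.45. With the top 100 size factor it was -0.31, and the genotypes did not overlap. With 1 liver left out it ranged from -0.11, without Apcfl/fl liver 3, to -0.31, without Apcfl/fl liver 2, and the genotypes did not overlap without Apcfl/fl liver 2 or without any 1 of the Apc+/+ livers. Such smaller groups separate more easily, and no share over other miRNAs was counted beside them. Set against the overall median under each scaling, the log2 ratio was -0.23 with TMM and -0.28 with the total count. As a score over the members the sum was not tested.

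**Figure D2:**
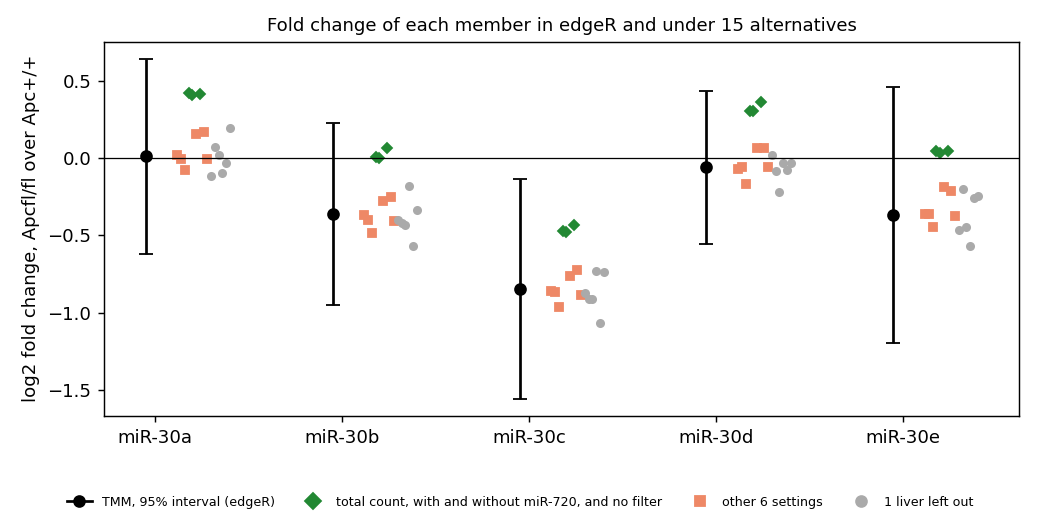
Log2 fold change of each member, Apcfl/fl over Apc+/+ (y axis), with TMM scaling and its 95% interval from edgeR, and under 15 alternative settings (coloured points). MiR-30c is below 0 under all 15, from -1.07 to -0.43, while each of the other 4 members has points on both sides of 0.

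Ratios between members inside a liver do not depend on the scaling between livers, and were used to ask whether the members moved alike. MiR-30c made up 8.62%, 7.64% and 8.18% of the family's counts in the Apc+/+ livers, against 4.54%, 5.86% and 5.13% in the Apcfl/fl livers. Its share was thus lower in every Apcfl/fl liver (means 8.14% ± 0.493 and 5.18% ± 0.661, SD, n = 3 each; exact permutation test, two-sided, p = 0.1, its lower bound). The difference, -2.96 percentage points, ranged from -3.31 to -2.65 with any 1 liver left out. The shares of the other 4 members overlapped between the genotypes, as 33.8% ± 3.85 and 39.6% ± 7.11 for miR-30a and 39.5% ± 1.88 and 35.4% ± 7.19 for miR-30b (SD, n = 3 each; two-sided exact permutation test, p = 0.4 and 0.6). MiR-30d (14.1% ± 2.42 and 15.7% ± 1.62) and miR-30e (4.45% ± 0.677 and 4.09% ± 1.11) gave p = 0.4 and 0.6 (exact permutation test, n = 3 each).

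**Figure D3:**
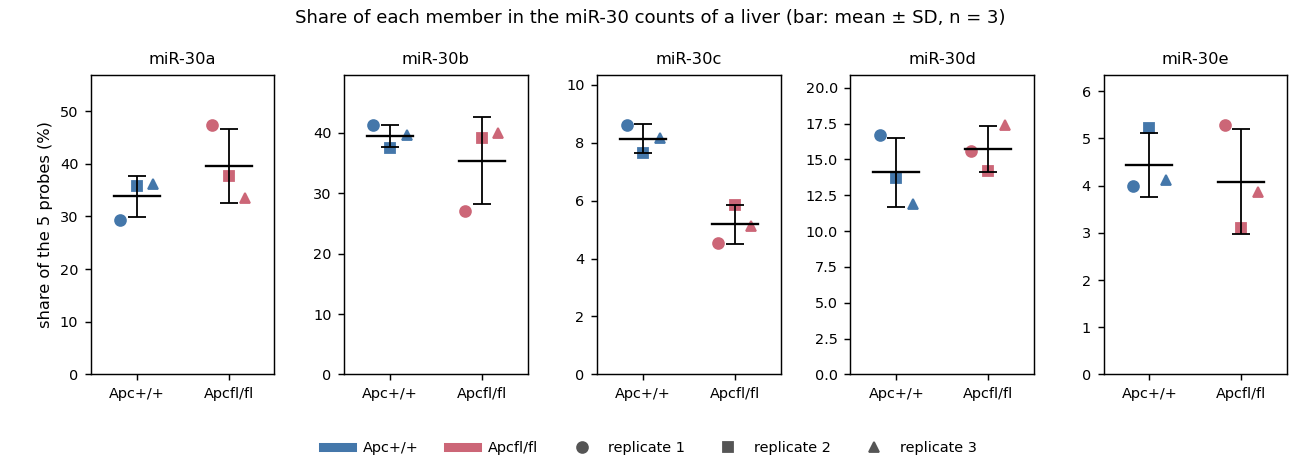
Share of each probe in the summed counts of the 5 miR-30 probes of a liver (y axis, percent, each panel with its own scale from 0), with 1 symbol per liver and the mean and SD of 3 livers in black. MiR-30c is at 7.64% to 8.62% in Apc+/+ (blue) and 4.54% to 5.86% in Apcfl/fl (red), and the other 4 panels overlap.

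Of the 10 ratios between 2 members, 3 did not overlap between the genotypes, and all 3 had miR-30c in them. Over all 15051 pairs of tested miRNAs 27.3% did not overlap, so 3 of 10 is close to the background. The ratio of miR-30a to miR-30c was 3.42, 4.71 and 4.44 for Apc+/+, against 10.5, 6.46 and 6.56 for Apcfl/fl, 1.84-fold higher in the geometric mean. The ratio of miR-30b to miR-30c was the steadiest in normal liver, at 4.81, 4.94 and 4.86, and was 6.00, 6.70 and 7.82 in Apcfl/fl liver, 1.40-fold higher. MiR-30c over miR-30d was 0.514, 0.554 and 0.685 against 0.289, 0.411 and 0.294. For each of these 3 ratios the exact permutation test (two-sided) gave p = 0.1, its lower bound, before any correction for 10 comparisons. MiR-30c over miR-30e, its neighbour in Nfyc, was 2.15, 1.46 and 1.98 against 0.855, 1.88 and 1.32, which overlapped (exact permutation test, p = 0.2). MiR-30b over miR-30d, the other neighbours, was 2.48, 2.73 and 3.33 against 1.74, 2.75 and 2.30 (exact permutation test, p = 0.3). MiR-30a over miR-30e, the members that differ at 1 base, was 7.36, 6.86 and 8.78 against 8.96, 12.2 and 8.68 (exact permutation test, p = 0.2). The ratios of miR-30a to miR-30b and to miR-30d, of miR-30b to miR-30e and of miR-30d to miR-30e overlapped as well, with fold differences of 0.978 to 1.32.

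**Figure D4:**
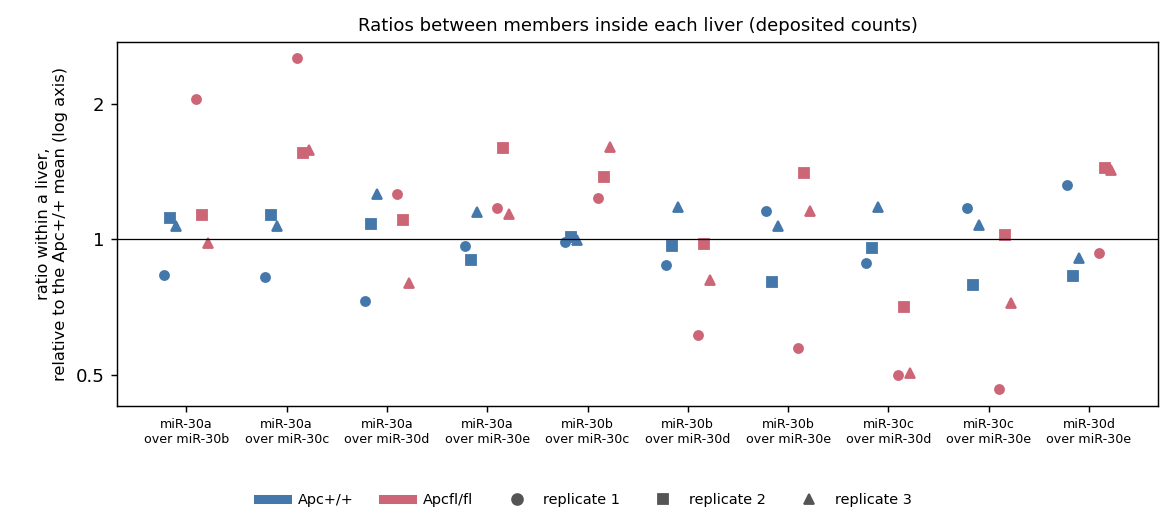
Ratio of the deposited counts of 2 members within each liver, relative to the Apc+/+ livers (y axis, log scale), for the 10 pairs of members (x axis), Apc+/+ in blue and Apcfl/fl in red. The genotypes separate for miR-30a over miR-30c, miR-30b over miR-30c and miR-30c over miR-30d, with fold differences of 1.84, 1.40 and 0.564.

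The members varied together only in part. After centring each on its own mean of log2 normalized counts over the 6 livers, miR-30a and miR-30e, the pair that differs at 1 base, were nearest to each other (root mean square difference 0.256), followed by miR-30b and miR-30c (0.257). MiR-30a and miR-30c, whose hairpins Mir30a and Mir30c-2 are neighbours, were the farthest apart (0.506). Measured in the same way against the family sum, the nearest tested miRNA outside the family was miR-194, at 0.179, followed by miR-338-3p at 0.205 and the probe shared by miR-20a and miR-20b at 0.210, against a median of 0.597 over the 169 tested miRNAs outside the family. MiR-338-3p had only 20.7 to 44.8 normalized counts, near the background limit, so its place is uncertain. MiR-194, a miRNA abundant in hepatocytes, stood at 1753, 1723 and 1785 normalized counts for Apc+/+, against 1101, 1471 and 1109 for Apcfl/fl. The members, which are part of the sum, lay at 0.185 (miR-30d), 0.205 (miR-30b), 0.207 (miR-30a), 0.257 (miR-30e) and 0.340 (miR-30c) from it. Among the 174 tested miRNAs, miR-30e ranked 13 and miR-30c 35 by this distance. Distances between other pairs of miRNAs were not computed, so whether the members were more alike than others was not tested. All these distances describe 6 livers that share their libraries and scaling.

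MiR-384-5p, the only other probe found with the seed, was deposited at 6, 4 and 3 counts for Apc+/+, against 1, 4 and 3 counts for Apcfl/fl. All values were under the viral probe limit, so no difference was detectable at this depth and no fold change is given. The panel held 0 probes marked with an asterisk, the only mark of the other strand that was searched for. Some panel names give the strand by a suffix, as in miR-126-3p and miR-126-5p, which that search does not cover. Whether the panel holds passenger strands of the miR-30 hairpins was thus not settled, and none was analysed here.

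Markers of cell types were compared between the genotypes beside the members. The 6 hepatocyte miRNAs of the list (miR-122, miR-192, miR-194, miR-101a, miR-148a and miR-802) exceeded the background limit throughout, and their summed normalized counts were 27759 to 43236 in Apc+/+ and 9322 to 15538 in Apcfl/fl liver. All 6 had a fitted level lower in Apcfl/fl, with a median log2 fold change of -1.05 and 0 of 6 under an adjusted p-value of 0.05. Most of each hepatocyte sum came from miR-122, with 20918 to 35990 normalized counts for Apc+/+, against 5938 to 11187 for Apcfl/fl. The 6 log2 differences were -1.71 (miR-122), -1.33 (miR-802), -1.31 (miR-148a), -0.80 (miR-101a), -0.52 (miR-194) and -0.39 (miR-192). The median log2 fold change was -0.92 over the tested mesenchymal markers, -0.34 over the endothelial, 0.34 over the biliary and 0.53 over the blood cell markers. MiR-30c (-0.85) lay between the mesenchymal and endothelial medians, while miR-30b (-0.36) and miR-30e (-0.37) lay beside the endothelial one. MiR-30a (0.01) and miR-30d (-0.06) lay between the endothelial and biliary medians. The tested mesenchymal markers ranged from -1.72 (miR-145) to -0.18 (miR-199a-3p), and the endothelial ones were -0.23 (miR-126-3p) and -0.46 (miR-126-5p). With such spread, these placings assign no member to a cell type. The sums of the mesenchymal list (4 of 5 tested) were 882 to 1301 against 318 to 716, and those of the blood cell list (7 of 8 tested) 1166 to 1622 against 1025 to 4886. MiR-142-5p stayed at or under the limit in every liver. Both endothelial markers summed to 3538 to 3757 against 2728 to 3506. Of the 5 biliary markers 3 were tested, none was above the limit in all livers, miR-200c and miR-141 were at or under it in all, and the sums were 72.7 to 140 against 71.3 to 210. The part of cell type composition in the miR-30c difference was not tested.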

How the data were processed

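NanoString miRNA profiles of 3 Apcfl/fl and 3 Apc+/+ livers were used, with genotype and replicate number from the labels. The authors deposited estimated counts per probe, not scaled between livers. In 584 of 584 probes with several values above the lowest value of 1, these values shared a decimal part (within 0.01). This points to a constant subtracted per probe, but probes with whole counts, such as miR-30a and miR-30e, cannot show one. The software and annotation are not given in the sources used here. The counts were rounded. Mouse miRNAs with a mean of at least 20 counts (174) were compared with edgeR 4.0.16 (quasi-likelihood, TMM, Benjamini-Hochberg over the 174) in R 4.3.3, with all 6 livers and without a replicate block. Depth was 82942 to 133331 counts. Poisson intervals cover only the counting error of the deposited values, without that of any count subtracted before. Normalized counts are counts divided by TMM library size, times the mean library size. Log2 values for distances and exact tests used a prior count of 2. The viral probe limit is the mean plus 2 SD in each liver. Each named ratio is on the linear scale. Whether the mice came from separate litters is not stated, so p-values measure the spread between these livers. The members, lists and tests were chosen with earlier results of these data known. The named miRNAs were the members, panel miRNAs with their seed, the 3 nearest in pattern and miR-122, beside markers from the cell type lists. Probes for the members' other strands were to be named too, but were searched for by an asterisk only. MiR-720 was named for its share of the counts after its values were seen. Sequences came from RefSeq tables (GRCm38.p6). The alternatives were DESeq2 1.42.0, limma 3.58.1, 3 other scalings, viral probe subtraction, other filters, a replicate block and each liver left out. The procedure was tested on simulated data.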

Additional observations from a re-analysis of the deposited data

How the results depend on the processing

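MiR-30c kept its direction under all 15 alternatives, with an unadjusted p-value under 0.05 in 8 and adjusted p-values of 0.062 to 0.68, so no alternative called it, and none called another member. With the total count, the log2 value turned positive for the family sum (0.17), miR-30b (0.010), miR-30d (0.31) and miR-30e (0.043), and, once miR-720 was left out of that total, for the family sum (0.17), miR-30d (0.30) and miR-30e (0.035). With no filter miR-30b (0.065), miR-30d (0.36) and miR-30e (0.046) were positive, and miR-30d also with viral probe subtraction (0.062) and the minimum of 60 (0.063). MiR-30a was negative with limma (-0.0068), the top 100 size factor (-0.075) and the replicate block (-0.0065). With 1 liver left out, miR-30a ranged from -0.11 (without Apc+/+ liver 1; also negative without Apcfl/fl liver 1 or 2) to 0.19, and miR-30d from -0.22 to 0.017 (without Apc+/+ liver 1), while miR-30b ranged from -0.57 to -0.18 and miR-30e from -0.57 (without Apcfl/fl liver 1) to -0.20 (without Apc+/+ liver 2). The share of miR-30b then differed by -6.39 to 0.058 percentage points (the latter without Apcfl/fl liver 1) and that of miR-30e by -0.96 to 0.13 (positive without Apc+/+ liver 2 or Apcfl/fl liver 2; not overlapping at -0.96, without Apcfl/fl liver 1). The share of miR-30a differed by 1.85 (without Apcfl/fl liver 1) to 8.78 points (without Apcfl/fl liver 3, not overlapping), and that of miR-30d by 0.53 (without Apc+/+ liver 3) to 2.93 (without Apc+/+ liver 1, not overlapping). Unadjusted p-values of miR-30c without 1 liver were above 0.05 without Apc+/+ liver 2 (0.064), Apcfl/fl liver 1 (0.071) or Apcfl/fl liver 3 (0.067). The genotypes did not overlap for miR-30c in 13 of 15 alternatives, the exceptions being the total count and no filter. For miR-30a, miR-30d and miR-30e they did not overlap in 1 each. These were miR-30a without Apcfl/fl liver 3 (higher), miR-30d without Apc+/+ liver 3 (lower) and miR-30e without Apcfl/fl liver 1 (lower). Limma and the replicate block used the normalized counts of the main fit, and leaving out a liver mostly keeps a separation already present. For miR-30c those settings are therefore no separate support. With a liver left out the groups are also smaller and separate more easily. The share of all tested miRNAs without overlap was not counted under the alternatives. Mice of the same number did not deviate together (r = -0.06, -0.06 and 0.12 over the tested miRNAs), and the labels name no pairing. With 3 mice per genotype and no reference from mice of unlike numbers, these correlations cannot exclude a pairing. With the replicate numbers as a block miR-30c was at -0.88.

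Over all miRNAs, lower and higher calls at an adjusted p-value under 0.05 (0 and 0, with 19 and 24 unadjusted) became 9 and 20 with DESeq2, 3 and 1 under both limma and the top 100 size factor, 1 and 16 after scaling to totals, 3 and 18 after leaving miR-720 out of the totals, 6 and 9 with viral probe subtraction, 6 and 12 with the minimum of 60 and 3 and 4 with the replicate block. With 1 liver left out they ranged from 0 to 8 and from 0 to 11, most without Apcfl/fl liver 3. The causes were not tested. The counts limit miR-30e most.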
